A study of Mus musculus with 17 samples.

Results

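The 9 genes described here are 8 genes that mark macrophages, Lyz2, Cd68, Csf1r, Adgre1, Mrc1, C1qa, C1qb and C1qc, and Fn1, the gene of fibronectin. They are 9 of the 18193 genes that the arrays measured with a probe set annotated to a single symbol. Where a gene had several such probe sets, the brightest on average was used. The genes were chosen by their levels in these same mice. Their differences between the groups, and the order of the mutant mice without a tumor, were already known. Those levels are therefore given as a description and without a test. All 9 passed the filter on dim signals, which left 13755 genes and asks for a signal past the 40th percentile of all values on 4 or more arrays.

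RNA came from the thymus of 17 C57Bl/6 mice, with 1 mouse on each array. The 5 controls were Tcf1+/- (wt/ΔVII), the 4 mice called tumor-free carried the mutation on both alleles (Tcf1-/-, ΔVII/ΔVII) and had no tumor, and the 8 lymphomas were thymic lymphomas of Tcf1-/- (ΔVII/ΔVII) mice. All mice therefore carried at least 1 ΔVII allele of Tcf1, a T-cell transcription factor at the end of the Wnt pathway, and no wild-type mouse was among them. The labels give no ages. They name homogenized thymus as the source, while the study's methods speak of thymocytes, and no sort or other purification of cells is described, so how much stroma the samples held is not settled by the sources used here. Values are log2 signals, so a difference of 1 is a doubling.

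Macrophages take up dying thymocytes in the normal thymus, where most developing T cells die. They depend on the growth factor receptor encoded by Csf1r, are rich in lysosomal proteins, and are the main source of C1q, the protein that starts the classical complement pathway. Fibronectin is a glycoprotein of the extracellular matrix that cells bind through integrins. Fibroblasts make it, some macrophages do as well, and the study counted Fn1 among its Wnt and Notch response genes.

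The promoter windows of the members are shown because the genes moved together in these mice. Windows of 300 bases, from 250 before to 50 after the start site (RefSeq, GRCm38.p6), were at hand for 5 of the 9 members, Mrc1, C1qb, C1qc, Lyz2 and Cd68. A search was made on both strands for GAGGAA, a core of sites of the myeloid factor PU.1 that reads TTCCTC from the opposite side, for the AP-1 motif TGANTCA, and for the cyclic AMP response element TGACGTCA, which 1.79% of all windows hold and these 5 do not. The 4 windows with a match are given 5′ to 3′ on the strand of the gene, with every match in capitals:
Cd68, chr11:69666121-69666420, minus strand: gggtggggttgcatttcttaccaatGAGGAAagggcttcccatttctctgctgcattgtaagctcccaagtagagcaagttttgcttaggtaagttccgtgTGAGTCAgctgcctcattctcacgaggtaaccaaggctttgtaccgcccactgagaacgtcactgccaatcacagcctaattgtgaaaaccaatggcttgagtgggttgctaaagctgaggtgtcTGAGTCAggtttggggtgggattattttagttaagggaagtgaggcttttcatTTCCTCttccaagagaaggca
Mrc1, chr2:14229164-14229463, plus strand: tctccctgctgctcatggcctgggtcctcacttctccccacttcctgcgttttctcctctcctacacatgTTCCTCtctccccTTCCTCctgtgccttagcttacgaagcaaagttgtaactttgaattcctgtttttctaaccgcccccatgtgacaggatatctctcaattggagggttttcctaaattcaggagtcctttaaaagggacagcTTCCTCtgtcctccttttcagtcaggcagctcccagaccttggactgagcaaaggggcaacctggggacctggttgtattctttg
C1qb, chr4:136886151-136886450, minus strand: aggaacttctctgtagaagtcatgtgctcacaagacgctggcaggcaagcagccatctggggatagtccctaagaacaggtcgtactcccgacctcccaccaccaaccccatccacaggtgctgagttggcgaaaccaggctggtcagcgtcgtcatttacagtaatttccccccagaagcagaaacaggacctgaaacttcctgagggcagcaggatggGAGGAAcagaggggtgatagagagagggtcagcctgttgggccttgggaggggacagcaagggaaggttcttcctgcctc
C1qc, chr4:136892865-136893164, minus strand: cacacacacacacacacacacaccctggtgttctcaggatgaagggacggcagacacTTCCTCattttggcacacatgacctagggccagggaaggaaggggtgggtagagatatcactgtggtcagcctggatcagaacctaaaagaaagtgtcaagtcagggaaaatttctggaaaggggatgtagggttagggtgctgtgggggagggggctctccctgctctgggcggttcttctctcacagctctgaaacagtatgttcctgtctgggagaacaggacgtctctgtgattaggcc
The GAGGAA core was found in 4 of the 5 windows, against 28.3% of the 32851 mouse promoter windows of the same length. Mrc1 held 3 matches, Cd68 held 2, and C1qb and C1qc held 1 each. The match in C1qb began 30 bases before the start site and the closest match in Mrc1 35 bases before it. Cd68 also held 2 AP-1 matches, a motif found in 7.81% of all windows, and neither these nor the GAGGAA matches overlapped each other. The window of Lyz2 held neither of these strings of letters. A match is a string of letters and was not tested as a binding site. C1qb, C1qc and C1qa lie next to each other on chromosome 4, whereas the other members lie on chromosomes 1, 2, 10, 11, 17 and 18.

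The arrays fell into 2 sets. Those of controls 1 and 2 and lymphomas 1 and 2 had an interquartile range of all values of 2.93 to 3.06, against 3.49 to 3.75 in the other 13, and a larger gap between the 3' and 5' probe sets of Gapdh, a control for RNA integrity (1.12 to 2.63 against −0.13 to 0.96). All 4 tumor-free mice were in the set of 13, and a value without the set of 4 is given where leaving them out ended a call, turned a direction or moved a named difference in tumor-free mice against controls by over 1.5 times. Y-linked genes were expressed in 4 of 4 tumor-free mice, 4 of 5 controls and 2 of 8 lymphomas. Thymocyte genes were high in every control, with a mean level over the 9 tested of 11.9 to 12.4. Bulk RNA cannot tell apart more cells of a kind from more RNA in each, and this holds for every level below.

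All 9 genes were higher in the tumor-free Tcf1-/- thymi than in the controls, and the 8 macrophage genes lay 1.99 to 3.06 above them. Their median difference was 2.47, which is 5.53-fold, beside a median of −0.01 over all genes tested. Fn1 was 3.82 higher, a 14.1-fold difference. Without controls 1 and 2, which lie in the set of 4, the 8 genes lay 1.22 to 2.59 above the controls with a median of 2.01, and Fn1 3.53. In 8 of the 9 genes every tumor-free mouse was above every control, with C1qb the exception. Of all genes tested, 11.2% were higher in this way. Since the genes were picked for this difference, the count describes them and supports nothing further. In the lymphomas the group means of the 9 genes lay between 0.68 below (−0.68) and 0.53 above those of the controls.

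**Figure D1:**
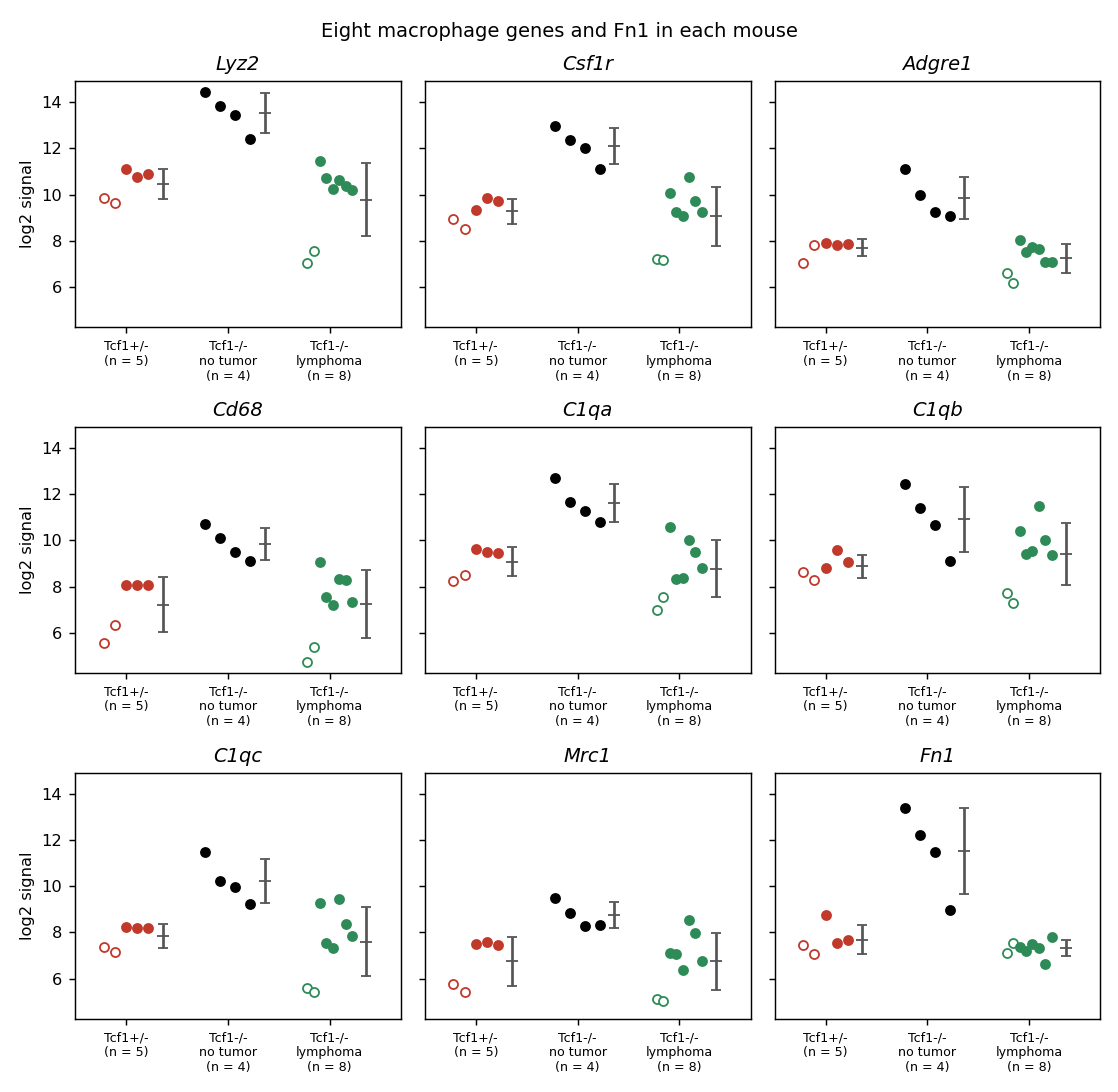
Log2 signal of the 8 macrophage genes and Fn1 in each of the 17 mice, in order of mouse number within a group. Points are mice, open points are the 4 arrays of low interquartile range, and the bar beside each group is the mean ± SD. Tumor-free Tcf1-/- mice descend from mouse 1 to mouse 4 in 8 of the 9 genes, and lymphomas 1 and 2 lie below the other lymphomas in the macrophage genes but not in Fn1.

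Lyz2, which encodes the lysozyme of macrophages and granulocytes, had the largest difference of the 8. Its signal was 9.86, 9.63, 11.12, 10.75 and 10.90 in controls 1 to 5 and 14.43, 13.82, 13.43 and 12.38 in tumor-free mice 1 to 4. In the lymphomas it ran from 7.05 over a median of 10.30 to 11.43. The lowest tumor-free mouse was thus 1.27 above the highest control and 0.95 above the highest lymphoma. The group means were 10.5 ± 0.66 (SD, n = 5), 13.5 ± 0.86 (SD, n = 4) and 9.77 ± 1.58 (SD, n = 8), and the difference of tumor-free mice from controls was 3.06 ± 0.43 (SE). Lyz1, a near-identical neighbor whose RNA the probes may not separate from that of Lyz2, was 2.59 higher in tumor-free mice on the log2 scale.

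Cd68 encodes a glycoprotein of lysosomes and endosomes. Its signal was 5.56 and 6.35 in controls 1 and 2, 8.08, 8.07 and 8.07 in controls 3 to 5, and 10.69, 10.08, 9.50 and 9.10 in tumor-free mice 1 to 4. The lymphomas ran from 4.76 over a median of 7.45 to 9.05. Every tumor-free mouse was above every mouse of the other groups, but by only 0.06 over lymphoma 3. The controls were split by the array sets, with the 3 others within 0.01 of each other, and the difference of 2.62 ± 0.57 (SE) between tumor-free mice and controls was 1.77 without controls 1 and 2.

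Csf1r encodes the receptor for the macrophage growth factors CSF-1 and IL-34. Controls 1 to 5 had 8.94, 8.53, 9.35, 9.85 and 9.71 and tumor-free mice 1 to 4 had 12.95, 12.37, 12.02 and 11.10. The lymphomas ran from 7.18 over a median of 9.25 to 10.76. By the probe set used, the tumor-free group again overlapped with neither of the others. Its difference from controls was 2.83 ± 0.38 (SE). Adgre1, the gene of a surface receptor used to mark mouse macrophages, had 7.05, 7.83, 7.92, 7.83 and 7.86 in the controls and 11.09, 10.0003, 9.26 and 9.08 in tumor-free mice, 2.16 ± 0.38 (SE) higher. Control 1 was far below the other controls. Its lymphomas ran from 6.16 over 7.31 to 8.04, and the gap of 1.04 between the highest lymphoma and the lowest tumor-free mouse was the widest among the macrophage genes.

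Mrc1 encodes the mannose receptor of tissue macrophages. It was 5.77, 5.42, 7.52, 7.58 and 7.45 in controls 1 to 5 and 9.50, 8.84, 8.29 and 8.34 in tumor-free mice 1 to 4, a difference of 1.99 ± 0.50 (SE) and the smallest of the 9. Without controls 1 and 2 it was 1.22, which is still free of overlap. The lymphomas ran from 5.02 over a median of 6.93 to 8.52. Lymphoma 6, the highest, was above tumor-free mice 3 and 4. Mrc1 was also the only member in which tumor-free mouse 4 was not the lowest.

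The 3 C1q genes encode the chains of 1 protein. C1qa was 8.27, 8.51, 9.63, 9.49 and 9.47 in controls 1 to 5 and 12.72, 11.64, 11.29 and 10.80 in tumor-free mice 1 to 4, and 6.98 to 10.60 with a median of 8.59 in the lymphomas. C1qc was 7.35, 7.17, 8.23, 8.20 and 8.20 in the controls and 11.48, 10.22, 9.99 and 9.23 in tumor-free mice, and 5.41 to 9.43 with a median of 7.69 in the lymphomas. C1qa did not overlap between tumor-free mice and either other group, while for C1qc lymphomas 3 and 6 reached above tumor-free mouse 4. Their differences from controls were 2.54 ± 0.41 and 2.40 ± 0.42 (SE).

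C1qb was the member that departed from this pattern. It was 8.64, 8.27, 8.81, 9.59 and 9.08 in controls 1 to 5, 12.43, 11.42, 10.67 and 9.11 in tumor-free mice 1 to 4, and 7.31 to 11.49 with a median of 9.48 in the lymphomas. Tumor-free mouse 4 lay within the controls, and 6 of the 8 lymphomas reached above it. The other probe sets of C1qb differed in size from the one taken, although all had the same direction in tumor-free mice. The difference of tumor-free mice from controls was 2.03 by 1437726_x_at, the brightest with a mean of 9.61 over 17 arrays, 2.84 by 1417063_at (mean 9.18) and 1.91 by 1434366_x_at (mean 9.09). By 1417063_at no tumor-free mouse overlapped with a control. Lymphomas against controls were 0.53 and 0.36 higher by the x_at sets, whose probes can also bind other transcripts, and 0.44 lower by 1417063_at (−0.44).

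**Figure D2:**
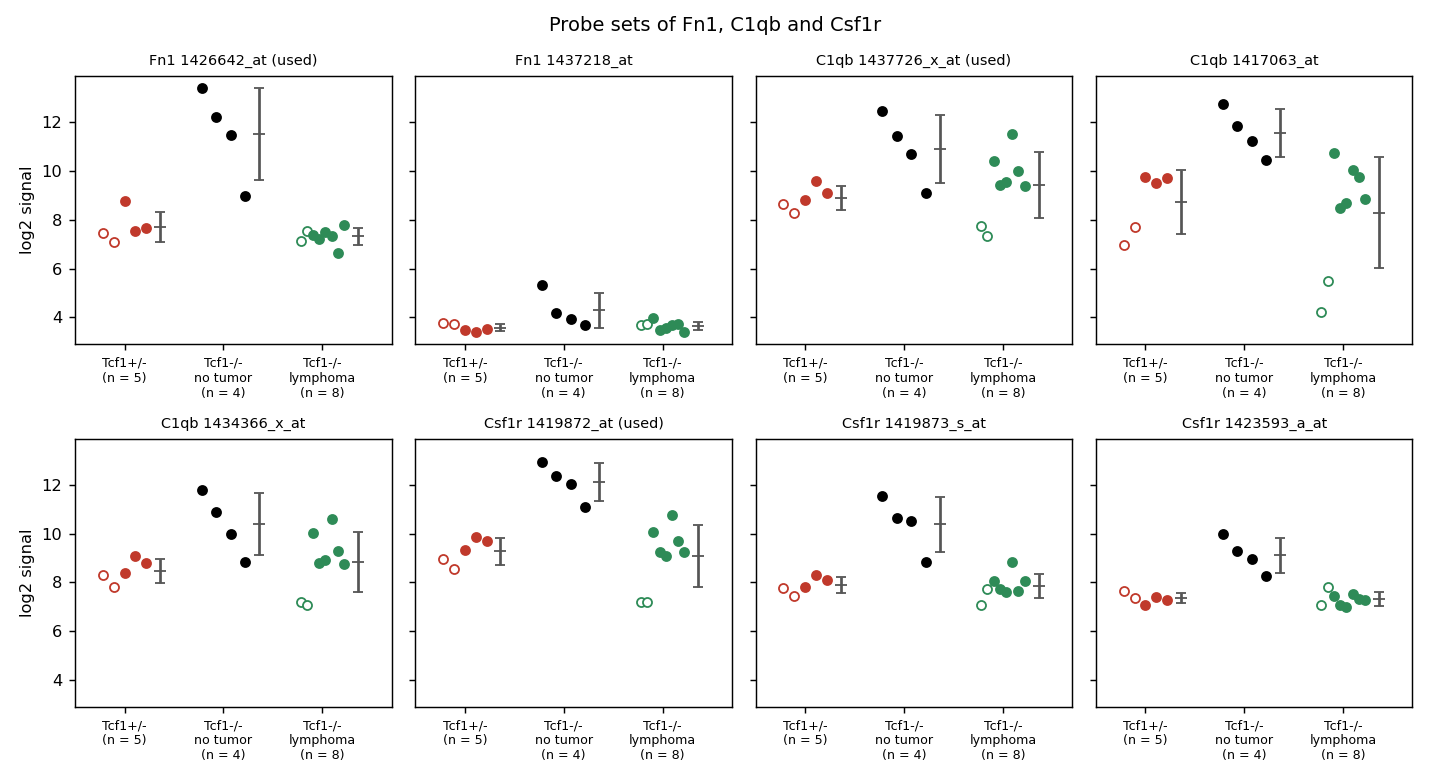
Log2 signal in each mouse for every single-symbol probe set of Fn1, C1qb and Csf1r, with the set used marked, points and bars as in the plot of the members by mouse. The sets of C1qb and Csf1r rise in tumor-free mice with different sizes, and the set 1437218_at of Fn1 lies between 3.41 and 4.17 on every array but that of tumor-free mouse 1, at 5.34.

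Of the 9 genes, Fn1 had the largest difference between tumor-free mice and controls and the widest spread among the tumor-free mice. Its signal was 7.45, 7.08, 8.75, 7.55 and 7.65 in controls 1 to 5 and 13.39, 12.21, 11.47 and 8.98 in tumor-free mice 1 to 4. Tumor-free mouse 4 was only 0.23 above control 3, whereas tumor-free mouse 1 was the highest of all. The difference of 3.82 ± 0.73 (SE) exceeded that of 99.8% of the genes tested, and it was 3.53 without controls 1 and 2. Without tumor-free mouse 4 it was 4.66, and without mouse 1 it was 3.19. The 8 lymphomas lay between 6.62 and 7.80 with a median of 7.36, a group mean of 7.31 ± 0.35 (SD, n = 8) beside 7.69 ± 0.63 (SD, n = 5) in controls and 11.5 ± 1.87 (SD, n = 4) in tumor-free mice. All 8 were below every tumor-free mouse, by 4.20 ± 0.58 (SE) on average.

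The other probe set of Fn1, 1437218_at, was dim. It was above the 40th percentile of its array only in tumor-free mouse 1, and its difference between tumor-free mice and controls was 0.70. With the mean of both sets, Fn1 was 2.26 higher in tumor-free mice than in controls and differed by −2.41 between lymphomas and tumor-free mice. The size for Fn1 therefore rests on 1426642_at. For Csf1r the other probe sets gave 2.48 and 1.76 in place of 2.83. By the former, 1419873_s_at, lymphoma 6 (8.83) was above tumor-free mouse 4 (8.82).

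The 4 tumor-free mice kept an order. Mouse 1 was the highest, followed by 2, 3 and 4, in 8 of the 9 genes. This order was known when the genes were chosen, so the count describes them and supports nothing further. In Mrc1 mice 3 and 4 were 8.29 and 8.34. The macrophage genes were a median of 3.60 above the control mean in mouse 1, 2.56 in mouse 2, 2.18 in mouse 3 and 1.66 in mouse 4. From mouse 1 to mouse 4 the mean of the 8 fell from 11.91 over 11.05 and 10.56 to 9.89, a range of 2.02, while the range of Fn1 was 4.42. The same order was found in the mean of 13 of the 20 gene lists examined, among them lists of B cells (11.5, 10.3, 10.2 and 9.53 in mice 1 to 4) and NK cells (10.6, 9.82, 9.71 and 9.04). Neutrophil genes did not follow it. Their mean was 7.19 in mouse 1, the lowest of the 4, and 10.6, 10.5 and 9.52 in mice 2 to 4, so that among tumor-free mice the 1 with the highest Lyz2 and Fn1 had the least neutrophil signal. Fibroblast genes were ordered 2, 1, 4 and 3, at 6.52, 6.68, 5.87 and 6.13 in mice 1 to 4. Mouse numbers are labels with no order of their own, and what set the order was not tested.

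In the lymphomas the macrophage genes were lower than in tumor-free mice by 1.50 to 3.74, with a median of −2.63 (6.17-fold lower) beside 0.10 over all genes tested. Of the 9 members 6 did not overlap, all but C1qb, C1qc and Mrc1, and 6.27% of all genes tested were lower without overlap. Without lymphomas 1 and 2 the median was −2.13 and Fn1 was 4.20 lower (−4.20), and C1qb moved from −1.50 to −0.87. With the Y-linked signal as a covariate the median was −2.05 and that of Fn1 −4.29.

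Between lymphomas and controls no member was without overlap, beside 4.78% of genes tested that were higher and 1.9% that were lower without overlap. The median difference of the macrophage genes was −0.22, from −0.68 for Lyz2 to 0.53 for C1qb, and Fn1 differed by −0.38 ± 0.25 (SE). This small median turned its sign with single mice, to 0.06 without lymphoma 1 and 0.07 without lymphoma 2, and it was 0.43 with the Y-linked signal as a covariate and −0.50 with the array set as a block. The array sets gave different pictures. On the 4 arrays of low interquartile range, 2 lymphomas against 2 controls, the median was −1.09, beside 0.06 over all genes tested. Fn1 differed by 0.06 there. The gap between the 3' and 5' probe sets of Gapdh was 2.63 and 2.33 in lymphomas 1 and 2. It was 1.61 and 1.12 in controls 1 and 2. On the other arrays, 6 lymphomas against 3 controls, the median was −0.16 and Fn1 was −0.67. Over the 5 pairs of lymphoma and control with the same mouse number, the median was −0.66.

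Over all 8, the lymphomas differed widely among themselves in macrophage genes and little in Fn1. The mean of the 8 macrophage genes ran from 6.38 in lymphoma 1 and 6.45 in lymphoma 2 to 9.50 in lymphoma 3 and 9.61 in lymphoma 6, a range of 3.23, against 1.18 for Fn1. Lymphomas 3 and 6 were a median of 1.21 and 1.31 above the control mean over the 8 genes, yet their Fn1 was 7.39 and 7.33, below the control mean of 7.69. Among the 6 lymphomas outside the low set the ranges were closer, 1.37 for the macrophage mean and 1.18 for Fn1. There, Fn1 and the macrophage mean had r = −0.26 (rho = −0.49, n = 6), and lymphomas 1 and 2 stood too far apart to be pooled with them. Within the members, pairs of macrophage genes correlated over the 17 arrays at a median r of 0.92, and Fn1 with each of them at a median of 0.77. These medians include the differences between groups for which the genes were chosen. After each group was centered on its own mean, the medians were 0.88 for macrophage pairs and 0.35 for pairs with Fn1 (0.23 to 0.55). Over these same 6 lymphomas the medians were 0.71 for pairs of macrophage genes and −0.18 for pairs with Fn1. The coefficients over the 6 lymphomas describe few mice that share an array set, and those over the 17 arrays pool the array sets.

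**Figure D3:**
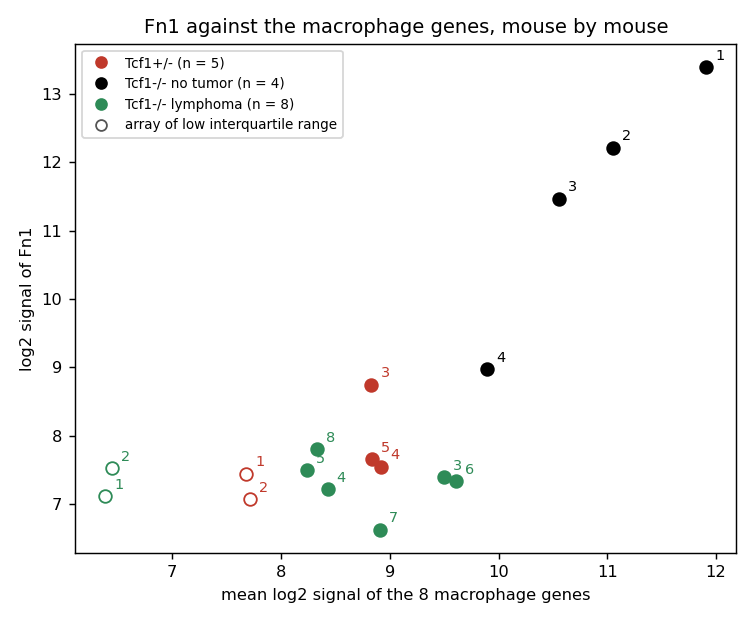
Log2 signal of Fn1 against the mean log2 signal of the 8 macrophage genes, 1 point a mouse with its number, open points for the 4 arrays of low interquartile range. The 4 tumor-free mice climb along both axes from mouse 4 to mouse 1, while the lymphomas spread over 3.23 on the x axis and 1.18 on the y axis.

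The mean of 8 fibroblast genes was also variable in lymphomas, from 4.74 in lymphoma 4 to 7.27 in lymphoma 7. Fn1 was lowest in that same lymphoma 7, at 6.62. Over the 6 lymphomas Fn1 and the fibroblast mean had r = −0.38 (rho = −0.43, n = 6), and the fibroblast and macrophage means had r = 0.68 (rho = 0.60, n = 6). Of the 8 fibroblast genes, 4 rose by limma in tumor-free mice against controls, beside 10.1% of all genes tested. They were Dcn, Col3a1, Mgp and Col1a2, by 2.75, 2.45, 2.30 and 1.14 (adjusted p of 0.000398 to 0.00588). In lymphomas against controls 0 of the 8 passed the adjusted threshold by limma or by the Mann-Whitney U test, and 4 and 2 of them were higher at an unadjusted p under 0.05. Col3a1 was at 2.21 (adjusted p = 0.0768). The fibroblast mean was 0.98 higher in lymphomas than in controls, with 7 of the 8 lymphomas above every control and 1 below every control.

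The genes whose pattern over the 17 arrays was most like that of the macrophage mean were Ctsh, Ctsb, Fcgr3, Ctss, Fcer1g, Aif1, Fcgr1, Sirpa, Plek and H2-M3, with Pearson r of 0.986 to 0.972. They include 3 cathepsins, lysosomal proteases, and subunits of Fc receptors, which bind antibody. Ctss was 10.53, 10.12, 11.21, 11.35 and 11.39 in controls 1 to 5 and 13.90, 13.29, 13.07 and 12.56 in tumor-free mice 1 to 4. Its order of tumor-free mice was that of the members, which a choice by likeness over these same arrays favors.

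The 10 genes most like Fn1 were others, Emilin2, Clec4e, Clec4d, Prg4, Mcemp1, Metrnl, Tbx21, Gpr35, Cd14 and Ebf1, with r of 0.990 to 0.967. Emilin2 encodes a matrix glycoprotein, Clec4e and Clec4d encode C-type lectins of myeloid cells, and Prg4 encodes the lubricating proteoglycan of joints and serosal surfaces. Tbx21 and Ebf1 encode transcription factors of lymphocytes. Emilin2 was 5.77, 5.38, 6.40, 5.76 and 5.59 in controls 1 to 5, 11.04, 9.41, 8.81 and 7.29 in tumor-free mice 1 to 4 and 4.66 to 5.92 in the lymphomas. Prg4 was 5.48, 4.89, 6.93, 6.00 and 6.03 in the controls and 12.52, 10.90, 9.69 and 7.77 in tumor-free mice. As in Fn1, the highest control was control 3 and the lowest tumor-free mouse was mouse 4. A choice by r to Fn1 over these same arrays favors such a match. After each group was centered on its own mean the 5 closest to Fn1 were Emilin2, Clec4d, Metrnl, Clec4e and Prg4 (r of 0.949 to 0.927), and the 5 closest to the macrophage mean were Abca1, Fcer1g, Fcgr3, Ctsb and Ctss (0.975 to 0.970). The 17 arrays share their groups and array sets, so these coefficients are descriptions.

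Other myeloid genes were taken from 8 lists of 98 genes, 87 of which were tested. Of these, 57 rose in tumor-free mice against controls, 1 fell and 29 did not pass limma's adjusted threshold, while 10.1% of all genes tested rose and 4.7% fell. Their median difference was 1.49. Without controls 1 and 2 the count was 55, and 51 genes were shared. By the exact Mann-Whitney U test, which the study's methods name, 0 passed after adjustment, since 4 mice against 5 cannot give a two-sided p under 0.0159, and 61 were higher and 1 lower at an unadjusted p under 0.05.

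Of 17 genes of receptors that bind antibody or particles, their signaling chains and other phagocyte proteins, 14 rose. Cd36, a scavenger receptor, was 3.11 ± 0.31 (SE) higher (adjusted p = 0.000198), Marco, another, 2.99 ± 0.29 (adjusted p = 0.000194), Fcer1g, the shared signaling chain of Fc receptors, 2.73 ± 0.34 (adjusted p = 0.000596) and Mpeg1, the pore-forming perforin-2, 2.72 ± 0.38 (adjusted p = 0.0012). The 3 that did not pass were also receptors of tissue macrophages. Cd163, the receptor for hemoglobin-haptoglobin, differed by −0.13 (adjusted p = 0.886), Siglec1, the sialoadhesin gene, by −0.13 (adjusted p = 0.737) and Trem2, a lipid receptor, by 0.09 (adjusted p = 0.869). These values rest on controls 1 and 2. Without them Cd163 differed by −0.71 (adjusted p = 0.0622), with every tumor-free mouse below controls 3 to 5, Trem2 by 0.42 (adjusted p = 0.0522), with every tumor-free mouse above them, and Siglec1 by 0.03 (adjusted p = 0.913).

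Genes for the clearance of dead cells and for heme and iron rose in 7 of 14. Timd4, the receptor for phosphatidylserine on dying cells, was 2.69 higher (adjusted p = 0.00414). Axl and Stab2, also receptors for dying cells, were 2.04 and 1.84 higher (adjusted p = 0.0163 and 0.000904), and Slc40a1, the iron exporter ferroportin, 1.76 (adjusted p = 0.0145). Without controls 1 and 2 Axl was 1.31 higher (adjusted p = 0.0161) and Slc40a1 1.12 (adjusted p = 0.0058), and without tumor-free mouse 2 Axl was not called and 4 genes of the list rose. The bridging molecule Mfge8 differed by −0.03 (adjusted p = 0.944) and Hmox1, the heme oxygenase, by 0.49 (adjusted p = 0.125). Timd4 in tumor-free mice 1 to 4 was 8.90, 8.49, 7.80 and 7.56, and the controls ran from 4.32 to 6.47.

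Transcription factors of myeloid cells rose in 9 of 9. Maf, a factor of macrophages and some T cells, was 3.52 higher (adjusted p = 0.000482), Irf8 2.30 (adjusted p = 0.000987), Spi1, which encodes PU.1, 1.81 (adjusted p = 0.0151) and Cebpb 1.77 (adjusted p = 0.0197). Cebpb was not called without tumor-free mouse 2, nor without controls 1 and 2, where it was 1.80 higher (adjusted p = 0.0517). Of 6 tested colony-stimulating factors and receptors other than Csf1r, 4 rose, namely the receptor genes Csf2rb (2.88, adjusted p = 0.00199), Csf2ra (2.15, adjusted p = 0.0031) and Csf3r (1.70, adjusted p = 0.00376) and the cytokine Csf2 (0.93, adjusted p = 0.00241). Both ligands of the receptor made by Csf1r did not pass, Csf1 at 0.07 (adjusted p = 0.867) and Il34 at −0.03 (adjusted p = 0.932). They were at 0.33 (adjusted p = 0.118) and 0.02 (adjusted p = 0.961) without controls 1 and 2.

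Complement genes other than C1q rose in 7 of 9. Cd93, a surface protein named for a link to C1q, was 2.87 higher (adjusted p = 0.000199), Cfp, the gene of properdin, 2.56 (adjusted p = 0.00308), Cfb, factor B, 2.13 (adjusted p = 0.00386) and Serping1, the inhibitor of the C1 complex, 1.72 (adjusted p = 0.00522). Without tumor-free mouse 2 the count was 4. Genes of lysosomes divided, with 6 of 13 higher and 1 lower. The cathepsins Ctsh and Ctss were 2.75 and 2.29 higher (adjusted p = 0.00183 and 0.00141), and the protease gene Lgmn also rose (adjusted p = 0.0118). Lipa, the lysosomal acid lipase, fell by 1.83 (adjusted p = 0.000368), from 10.62, 10.83, 11.38, 11.22 and 11.32 in controls 1 to 5 to 9.45, 9.10, 9.47 and 8.93 in tumor-free mice 1 to 4. The general lysosomal membrane gene Lamp1 differed by 0.47 (adjusted p = 0.115).

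Of 13 genes of macrophage activation 6 rose. Chil3 and Retnla, secreted proteins induced by interleukin-4, were 3.86 and 3.17 higher (adjusted p = 0.00203 and 0.00639), and Cxcl10 and Cxcl9, chemokines induced by interferon, 2.54 and 2.24 higher (adjusted p = 0.00575 and 0.00867). Nos2, the inducible nitric oxide synthase, differed by −0.18 (adjusted p = 0.674) and Arg1, arginase 1, by 0.28 (adjusted p = 0.591), or by 0.03 and 0.44 without controls 1 and 2 (adjusted p = 0.875 and 0.294). Of 6 monocyte genes 4 rose, Ccr2 by 3.26 (adjusted p = 0.000137), Itgam, which encodes CD11b, by 2.71 (adjusted p = 0.0118), Cd300a by 2.11 (adjusted p = 0.00122) and Cx3cr1 by 1.83 (adjusted p = 0.00102). Itgam was 2.22 higher and not called (adjusted p = 0.0524) without controls 1 and 2.

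In lymphomas against tumor-free mice 48 of the 87 fell and 1 rose, beside 8.35% and 6.34% of all genes tested, with a median difference of −1.42. With the Y-linked signal as a covariate 15 fell, all of them among the 48, and 0 rose by limma, with 42 lower and 1 higher at an unadjusted p under 0.05. In lymphomas against controls 3 rose and 3 fell, beside 8.51% and 4.21% of all genes tested, at a median of −0.02. The 3 that rose were Arg1, Ace and C2, and the 3 that fell were Lipa, Ccl22 and Spic. Of these 6 calls, that of Arg1 alone was kept with every single mouse left out in turn. Without the 4 arrays of low interquartile range Arg1, Ace and C2 were called, while Lipa (−1.35, adjusted p = 0.087), Ccl22 (−0.64, adjusted p = 0.157) and Spic (−0.74, adjusted p = 0.116) were not. With the mouse number as a block over the 5 pairs 4 rose and 10 fell, and with the array set as a block 5 rose and 14 fell, so that the number of lower genes in this comparison depends on how the arrays are grouped.

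Arg1 was the 1 gene of the 87 that was called higher in lymphomas against both other groups. It was 4.57, 5.32, 4.63, 4.73 and 4.30 in controls 1 to 5, 5.60, 5.24, 4.61 and 4.53 in tumor-free mice 1 to 4, and 5.81 to 9.89 in the lymphomas, all 8 of which were above every mouse of the other groups. It was 3.59 higher than in controls (adjusted p = 0.00257) and 3.31 higher than in tumor-free mice (adjusted p = 0.00767, or 0.0969 over the 4 pairs of the same mouse number as a block). Lymphomas 3 and 6, with the highest macrophage means, had 9.89 and 9.89. Lymphomas 1 and 2, with the lowest, had 8.23 and 6.21, and the lowest Arg1 was 5.81 in lymphoma 4. Lipa was lower in lymphomas than in controls as well (−1.45, adjusted p = 0.0403). That call was lost with the mouse number as a block (adjusted p = 0.0515), without any 1 of the 5 controls, and without lymphoma 1, 6, 7 or 8.

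**Figure D4:**
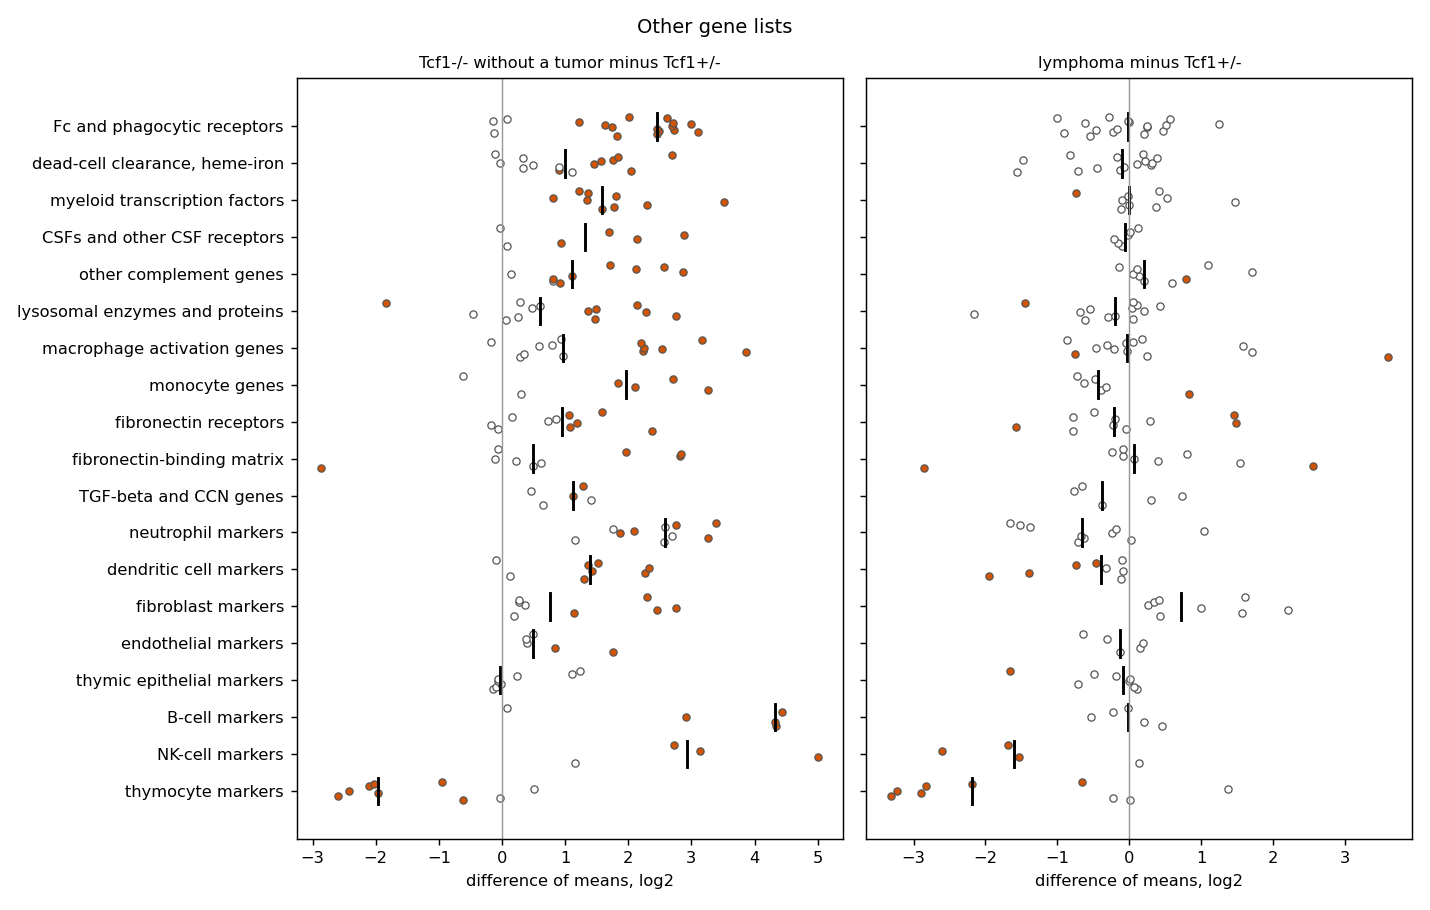
Difference of group means on the log2 scale for each tested gene of the lists, tumor-free Tcf1-/- thymi minus controls on the left and lymphomas minus controls on the right. Filled points passed limma's adjusted p threshold of 0.05 and black bars are list medians, at 2.45 for Fc and phagocytic receptors on the left and −0.02 on the right.

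Genes of proteins that bind fibronectin rose in part. Of 10 tested receptors, 5 rose in tumor-free mice. Cd44, a receptor for hyaluronan and matrix, was 2.38 higher (adjusted p = 0.000244), the syndecan Sdc4 1.58 (adjusted p = 0.00556), and the integrin chains Itga9, Itga4 and Itgb5 1.19, 1.08 and 1.06 (adjusted p of 0.00627 to 0.0122). The chains of the classical fibronectin receptor did not pass, Itga5 at −0.17 (adjusted p = 0.681) and Itgb1 at 0.85 (adjusted p = 0.245), and without controls 1 and 2 they were at −0.03 (adjusted p = 0.938) and 0.16 (adjusted p = 0.512). With the mouse number as a block 3 of the 10 receptors rose. Of 9 matrix partners and crosslinkers, 3 rose, Tgm2, a transglutaminase, by 2.84 (adjusted p = 0.00217), Tgfbi by 2.81 (adjusted p = 0.00146) and Thbs1, thrombospondin 1, by 1.97 (adjusted p = 0.0295). The call of Thbs1 was lost without controls 1 and 2 (2.08, adjusted p = 0.0621), without control 1, 4 or 5 alone and without tumor-free mouse 2.

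F13a1, the A chain of factor XIII, a crosslinker of fibronectin that some macrophages make, fell by 2.86 (adjusted p = 0.000133). It was 10.62, 10.33, 11.50, 11.05 and 11.13 in controls 1 to 5 and 8.09, 8.21, 8.33 and 7.62 in tumor-free mice 1 to 4, with every control above every tumor-free mouse. Its difference between lymphomas and controls was −2.85 (adjusted p = 0.000227). Fbln1, a matrix protein that binds fibronectin, rose in lymphomas against controls by 2.56 (adjusted p = 0.000127), and Fn1 differed there by −0.38. Of 5 tested genes of the TGF-beta pathway and the CCN family, 2 rose in tumor-free mice, Tgfbr2 by 1.28 (adjusted p = 0.0242) and Tgfb3 by 1.12 (adjusted p = 0.0424). Neither was called without controls 1 and 2 (0.89, adjusted p = 0.0626, and 1.27, adjusted p = 0.0539) or without control 1 alone. Of the pair, Tgfbr2 was also lost without tumor-free mouse 1 or 2 and with the mouse number as a block, and Tgfb3 without control 3, 4 or 5 or tumor-free mouse 1, and without tumor-free mouse 4 the list had 4 called.

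Markers of several other kinds of cell rose in part in tumor-free mice against controls, and thymocyte markers fell. Of all genes tested, 10.1% rose and 4.7% fell. Of 5 B-cell markers 4 rose, and their mean level was 9.53 to 11.5 in tumor-free mice and 6.95 to 7.55 in controls, with Pax5 not called (0.08, adjusted p = 0.898, or 0.45 and 0.142 without controls 1 and 2). Of 4 NK-cell markers 3 rose (mean level 9.04 to 10.6 against 6.33 to 7.23), of 8 dendritic cell markers 6 (7.05 to 8.57 against 6.43 to 6.54), of 10 neutrophil markers 5 (7.19 to 10.6 against 6.03 to 7.95), of 8 fibroblast markers 4 (5.87 to 6.68 against 4.93 to 5.23) and of 5 endothelial markers 2 (5.97 to 6.60 against 5.37 to 5.81). Of 8 thymic epithelial markers 0 passed limma's adjusted threshold in this comparison, and 2 were higher at an unadjusted p under 0.05. By the Mann-Whitney U test 1 of them was higher at an unadjusted p under 0.05. After adjustment that test called 0 of all genes tested here, so it cannot tell these markers from others. Without controls 1 and 2, however, 2 of the 8 markers passed by limma. The neutrophil count was 3 without controls 1 and 2 or without control 3, and 10, 1 and 2 without tumor-free mouse 1, 2 and 3. Of 9 thymocyte markers 7 fell (10.6 to 11.2 against 11.9 to 12.4), among them Cd4, which fell by 2.60 (adjusted p = 7.1e-05). The part of these cells in the levels of Fn1 and the macrophage genes was not tested.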

How the data were processed

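The authors hybridized biotinylated cRNA from each thymus to Affymetrix GeneChip mouse genome arrays and normalized and summarized the raw data by RMA, whose version is not given in the sources used here. The deposited values are log2 signals of 45101 probe sets on 17 arrays. RMA evens out the distribution of probe signals between arrays, so a real shift shared by most genes may be lost. The summarized values still differed between arrays. Against the mean of the array medians, the median of the genes tested ran from −0.35 in control 1 to 0.22 in lymphoma 5. An array has no read depth, and the number of mice in a group limits the precision.

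Groups and mouse numbers were taken from the sample titles, and all 17 arrays were assigned. Of the probe sets, 34945 carry a single symbol in the platform annotation, 932 several and 9160 none, and 64 are controls. Analysis was limited to probe sets of a single symbol, the brightest of each gene over the 17 arrays, and to 13755 genes with a signal past the 40th percentile of all values on 4 or more arrays. The members and gene lists were chosen with earlier results of these data known. Members are described by group means, SD, the standard error of the difference and overlap. Genes of the lists were compared for each pair of groups by limma 3.58.1 in R 4.3.3 (lmFit and eBayes) with Benjamini-Hochberg adjustment over all genes tested, and called at an adjusted p under 0.05. The named genes of a list are up to 4 called genes with the largest change in tumor-free mice against controls and up to 3 not called. Arg1, F13a1, Lipa, Fbln1 and those called in lymphomas against controls were named after their values were seen where this rule does not name them. The genes most like a pattern were ranked by Pearson r over the tested genes. Pairs of groups share their mice, so the 3 comparisons are not independent. Nothing says whether mice shared a litter.

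Mouse numbers are shared between groups. After subtraction of group means, lymphomas and controls of the same number had correlations of 0.246 to 0.625 in all 5 pairs, so the mouse number was also fitted as a block. Both arrays of each pair lie in the same array set, however. Pairs of other numbers within a set had 0.164 to 0.642 and those across sets −0.654 to −0.180, and 2 of the 5 lymphomas correlated best with their own number, so that the number and the array set cannot be told apart. In the other comparisons the lowest were −0.29 and −0.19. The origin of the numbers is not given. Promoter windows came from RefSeq (GRCm38.p6), matched by symbol. The limma script was tested on simulated data in which 200 genes changed. Genes such as C3 and Spp1, for which no single-symbol probe set was found, were not analysed here, and neither were protein or RQ-PCR data. Alternatives were each mouse left out, other filters and probe sets, arrays centered on their median, a joint fit, the array set or mouse number as a block, a Y-linked covariate and the Mann-Whitney U test. The fit of the same mice without the block was chosen after seeing the data.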

Additional observations from a re-analysis of the deposited data

Results flagged for a closer look

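Of 30 groups of values checked, 1 held a mouse far from the others, and chance alone gives about 1 such group in 20. In Adgre1, control 1 was at 7.05 while the other controls lay between 7.83 and 7.92, a gap of 0.90 of the whole range of the controls. Its array is among the 4 of low interquartile range, and the difference between tumor-free mice and controls within the other arrays was 1.99.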

How the results depend on the processing

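The median of the 8 macrophage genes and the value of Fn1 kept their direction in tumor-free mice against both other groups under every alternative run. With single mice left out, the median was 2.07 to 2.77 against controls and −2.92 to −2.27 for lymphomas against tumor-free mice, and Fn1 was 3.19 to 4.66 and −5.05 to −3.57. For lymphomas against controls these ranges were −0.47 to 0.07 for the median and −0.54 to −0.12 for Fn1. The mean of all probe sets gave 2.26 and −2.41 for Fn1. Centering arrays on their median moved the median of all genes tested from −0.01 to −0.19 in tumor-free mice against controls and from 0.06 to −0.06 in lymphomas against controls. It turned calls of 1390 higher and 647 lower into 1129 and 1179 in the former and 1170 and 579 into 726 and 817 in the latter, while the median of the macrophage genes in tumor-free mice was 2.29. Without the 4 arrays of low interquartile range the former gave 1410 and 1630 and the latter 748 and 825.

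Of the myeloid list genes, 48 to 61 rose and 1 fell in tumor-free mice against controls with single mice left out. Without the 4 arrays 2 fell (Ctsl and Lipa), and the Mann-Whitney U test called 0 in either direction. For lymphomas against tumor-free mice 38 to 51 fell and 1 to 2 rose. None rose by limma over the 4 pairs of mice with a replicate block (0) or without it (0), nor with the Y-linked covariate (0), under which 15 fell. With the block 33 fell, and 45 over the same mice without it. For lymphomas against controls the counts were 1 to 5 higher and 0 to 5 lower. Higher genes numbered 5 in the joint fit, 5 without the 4 arrays, 5 with the array set as a block, 1 over the 5 pairs without the replicate block and 1 by the Mann-Whitney U test. Lower genes numbered 1 with no filter, 6 with the mean of probe sets, 8 with centered arrays, 5 without the 4 arrays, 14 with the array set as a block, 10 with the replicate block, 0 over the same pairs without it and 0 with the Y-linked covariate. The cause of these moves was not tested. The blocked fits of the other comparisons changed no other count of myeloid list genes by over 1.5 times. The array set could be a block only between lymphomas and controls.

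Over all 8 lymphomas r was −0.11 for Fn1 with the macrophage mean (−0.32 to 0.11 with single lymphomas left out, 0.04 without lymphoma 2 and 0.11 without lymphoma 7), −0.32 for Fn1 with the fibroblast mean (−0.48 to 0.21, the latter without lymphoma 7) and 0.70 for the fibroblast with the macrophage mean (0.63 to 0.91, the latter without lymphoma 4).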
